A study of Mus musculus with 12 samples.

Results

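The nuclear-encoded subunits of the oxidative phosphorylation complexes were followed across the 4 groups of the study. Members were taken by gene symbol, as the genes whose symbols begin with Nduf (series a, b, c, s or v followed by a digit), are Sdha, Sdhb, Sdhc or Sdhd, or begin with Uqcr, Cox4 to Cox8 or Atp5, without symbols marked as pseudogenes. This gave 88 of the 45777 genes in the deposited table, of which 39 belonged to complex I, 4 to complex II, 8 to complex III, 20 to complex IV and 17 to complex V. Ndufa4 and Ndufa4l2 were placed in complex IV in spite of their symbols. A count above 0 in at least 3 libraries was found for 83 of the 88, which were the members tested, and 5 were not tested (Ndufa11b, Ndufa4l2, Cox7b2, Cox8b and Cox8c). Cox7b2, Cox8b and Cox8c were listed at 0 FPKM in all 12 libraries.

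CD4+ T cells had been isolated from the spleens of wild type Balb/c mice aged 7 weeks, as the labels give it, and stimulated with anti-CD3 at 0.5 ug/ml for 3 days in every group, the control included. Cells received nothing further (the anti-CD3 group), *L. acidophilus*, FK506, or both agents together (the combination), with 3 libraries of polyadenylated RNA in each group. *L. acidophilus* is a lactic acid bacterium used as a probiotic, and FK506 (tacrolimus) blocks calcineurin, the phosphatase that carries the T-cell receptor signal to the NFAT factors. The labels do not give the form or dose of either agent, and nothing in them says whether libraries of a group came from separate animals or cultures, so that p-values measure the spread between these libraries, which may be technical.

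Complexes I to IV lie in the inner mitochondrial membrane and pass electrons from NADH and succinate to oxygen. Complex V, the ATP synthase, uses the resulting proton gradient across that membrane to make ATP. Complex II also works in the citrate cycle and is built from nuclear genes alone, whereas the other complexes combine nuclear-encoded subunits with a few core subunits encoded in mitochondrial DNA. T cells that leave rest after receptor stimulation enlarge their mitochondria and raise respiration along with glycolysis. Many promoters of respiratory subunits are known to bind NRF1, the ETS-family factor GABP, YY1 or Sp1.

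The promoters of 8 members that the results below turn on are shown first, as the 100 bases before the annotated start of the gene (RefSeq, build GRCm38.p6, 5′ to 3′ on the strand of the gene). Capitals mark exact matches on either strand to the letters GCATGCGC (NRF1), CCGGAAGT (ETS family), AAGATGGC (YY1) or GGGGCGGG (Sp1). Uqcr11, Cox6a1, Atp5b, Sdhb and Uqcrfs1 are shown because they fell in the combination, and Sdha, Cox7a2l and Uqcrh because they did not pass the test. In these 100 bases at least 1 string was found in 13 of the 56 members with a sequence that fell (23.2%) and in 4 of the 11 that were not called (36.4%), against 14.4% of all genes. Their positions are chr10:80406822-80406921 (minus strand), chr5:115348959-115349058 (minus), chr10:128083207-128083306 (plus), chr4:140961171-140961270 (plus), chr13:30545317-30545416 (minus), chr13:74350241-74350340 (minus), chr17:83514334-83514433 (minus) and chr4:116075071-116075170 (minus), in that order.
Uqcr11: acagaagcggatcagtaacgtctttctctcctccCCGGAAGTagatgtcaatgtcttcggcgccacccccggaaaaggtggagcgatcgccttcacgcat
Cox6a1: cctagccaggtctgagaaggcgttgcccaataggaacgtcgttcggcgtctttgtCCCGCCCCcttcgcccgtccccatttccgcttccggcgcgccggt
Atp5b: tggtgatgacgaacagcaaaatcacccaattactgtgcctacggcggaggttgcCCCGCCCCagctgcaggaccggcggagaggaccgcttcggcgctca
Sdhb: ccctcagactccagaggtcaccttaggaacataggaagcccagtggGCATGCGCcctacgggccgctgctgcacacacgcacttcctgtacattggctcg
Uqcrfs1: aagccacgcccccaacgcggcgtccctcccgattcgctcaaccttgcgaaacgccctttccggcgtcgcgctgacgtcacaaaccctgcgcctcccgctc
Sdha: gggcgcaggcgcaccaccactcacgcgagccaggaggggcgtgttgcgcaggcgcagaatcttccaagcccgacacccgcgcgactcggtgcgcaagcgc
Cox7a2l: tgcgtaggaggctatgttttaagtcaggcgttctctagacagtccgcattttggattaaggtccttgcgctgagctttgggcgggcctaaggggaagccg
Uqcrh: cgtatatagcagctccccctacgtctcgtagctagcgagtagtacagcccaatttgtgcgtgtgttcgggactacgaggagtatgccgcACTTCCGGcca

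Over the whole window of 300 bases that the reference table gives, with 1 window for each gene, 69 of the 88 members had a sequence. At least 1 of the 4 strings was found in 33 of them (47.8%), against 23.5% of the windows of all 27025 genes. The NRF1 letters were in 10 member windows (14.5%, all genes 2.8%), the YY1 letters in 9 (13%, all genes 2.88%), the Sp1 letters in 18 (26.1%, all genes 16.7%) and the ETS letters in 5 (7.25%, all genes 4%). Members that fell in the combination and members that were not called held at least 1 string in similar shares, 28 of 56 and 5 of 11. The matches describe the letters of these windows and are no measurement of binding.

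All 12 libraries were deep, with 45416397 to 64658165 counts each. Replicate 1 was the deepest library of every group, with 63218325, 64334919, 64658165 and 63113961 counts in anti-CD3, *L. acidophilus*, FK506 and the combination. Summed over the 88 members, TPM (transcripts scaled to length and to a common library total) made up 1.94%, 2.29% and 1.89% of the anti-CD3 libraries, 1.88%, 1.93% and 1.87% of the *L. acidophilus* libraries, 1.85%, 1.77% and 1.84% of the FK506 libraries and 1.68%, 1.38% and 1.37% of the combination libraries, in the order of their replicate numbers. The combination libraries were below all others, while the other 3 groups lay close together except for replicate 2 of anti-CD3. This library and replicate 1 of the combination stood apart for these genes. Of the 76 members with a mean of at least 10 FPKM (fragments per kilobase of transcript, scaled to library size), 63 were highest in replicate 2 within the anti-CD3 group and 73 were highest in replicate 1 within the combination group. Counts of calls, and the changes of members that rested most on them, are therefore also given without them. Leaving out both together was chosen after seeing these values of the members. Counts from that fit are therefore no independent support for a fall.

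**Figure D1:**
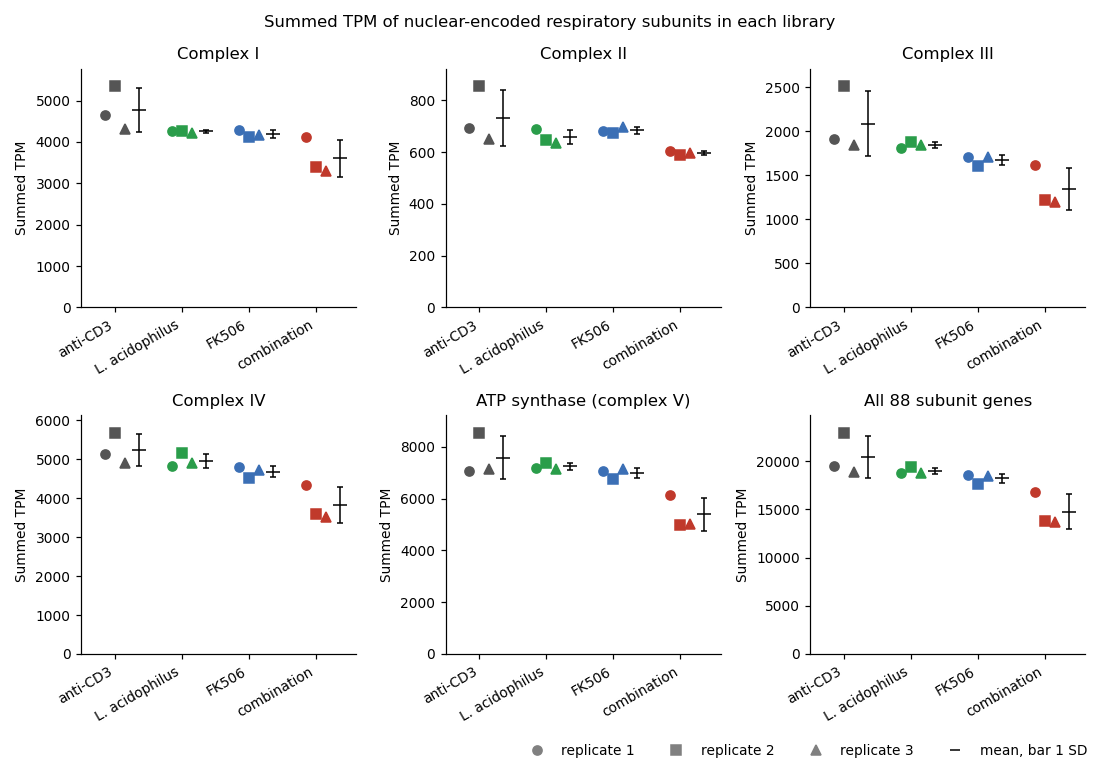
Summed TPM of the subunit genes of each complex, and of all 88, in each of the 12 libraries (points, shape by replicate number), with the mean and 1 SD of each group (black). The combination libraries lie below every other library in each panel but that of complex III, where its replicate 1 is above replicate 2 of FK506, and replicate 2 of anti-CD3 is the highest library in each.

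The markers of the labelled cell type were present in all libraries. The summed TPM of 11 T-cell genes was 5548 to 7718 in anti-CD3, 6959 to 7312 in *L. acidophilus*, 6379 to 7550 in FK506 and 9042 to 10204 in the combination, with none of the 11 at 0. Genes of other cells also differed between groups. The 12 B-cell genes summed to 96.7 to 159 TPM in anti-CD3, 63.7 to 90.4 in *L. acidophilus*, 590 to 1148 in FK506 and 349 to 457 in the combination. The 12 myeloid genes summed to 6.32 to 10.4, 9.75 to 19.6, 15.7 to 50.1 and 135 to 184 TPM in the same order, with S100a8 at 0 throughout, and the 6 erythroid genes reached 0.199, 0.843, 1.19 and 6.46 TPM at most. In libraries of whole cell populations, fewer cells of a type and less RNA per cell cannot be told apart, and the part of these other cells in the subunit results was not tested.

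The first question was what *L. acidophilus* or FK506 alone did to the subunit genes of stimulated cells. With *L. acidophilus*, none of the 83 tested subunits was called higher or lower than in anti-CD3 by edgeR's quasi-likelihood test at a Benjamini-Hochberg adjusted p under 0.05, where 0.178% of the 23585 genes tested were called higher and 0.0509% lower. Their median log2 fold change was −0.21, and −0.07 without replicate 2 of anti-CD3. An unadjusted p under 0.05 was found for 14 subunits (16.9%), all of them lower, and for 14.8% of all genes, of which 1710 of 3489 were lower. DESeq2 called 1 subunit lower, Uqcrq, where it called 2.34% of all genes lower. With FK506, 14 subunits were lower than in anti-CD3 and none higher by edgeR, against a background of 8.81% of genes lower and 10.2% higher. Highly expressed genes were lower more often than that. Among genes with a mean of at least 10 FPKM, 15.3% were lower, beside 14.5% of the subunits at that level (11 of 76), so that the subunits fell no more often than genes of like abundance. The median log2 fold change was −0.38 over all tested subunits, and −0.17 without replicate 2 of anti-CD3. Fitted changes come from counts scaled between libraries (TMM) and can differ from ratios of FPKM. In the combination against anti-CD3 this scaling moved the median of the subunits from −0.59 to −0.79 and that of all genes from 0.23 to 0.02, and Sdha was at 0.089 without it and at −0.12 with it.

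The 14 subunits lower with FK506 were spread over complexes I, III, IV and V. They comprised 4 of 38 in complex I (Ndufa6, Ndufa9, Ndufb8 and Ndufv3), none of 4 in complex II, 2 of 8 in complex III (Uqcrq and Uqcrfs1), 6 of 16 in complex IV (Cox4i1, Cox6a1, Cox8a, Cox6b2, Cox4i2 and Cox6a2) and 2 of 17 in complex V (Atp5b and Atp5d). The 5 largest of the falls with a mean of at least 1 FPKM were in Cox6b2 (log2 fold change −1.43 ± 0.26 SE), Uqcrq (−1.16), Atp5d (−0.89), Ndufb8 (−0.80) and Ndufv3 (−0.76). Only Ndufv3 and Cox6b2 kept an adjusted p under 0.05 when each of the 12 libraries was left out in turn. The count was 6 without replicate 2 of anti-CD3 and 30 without its replicate 3, 9 without replicate 2 of *L. acidophilus*, and 5, 2 and 8 without replicates 1, 2 and 3 of FK506. In that order, 6.73%, 10.2%, 7.65%, 5.82%, 4.28% and 6.69% of all genes were lower in these fits.

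The combination was then set against anti-CD3 alone. Here 68 of the 83 tested subunits were lower and none higher, where 21.8% of all genes tested were lower and 21.5% higher. The median log2 fold change was −0.79 over the subunits and 0.02 over all genes tested. At least 2-fold falls were called in 28 subunits, against 10.8% of all genes. The FPKM of 49 subunits did not overlap between the groups, with all 3 combination libraries below all 3 anti-CD3 libraries, which held for 18.8% of all genes. Of the 68 falls, 52 kept an adjusted p under 0.05 in all 12 fits that left out a library. Without replicate 2 of anti-CD3 59 were called, without replicate 1 of the combination 78, and without both 78 of 82 tested. Of all genes, 19.9%, 21.1% and 20.6% were lower in these fits.

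**Figure D2:**
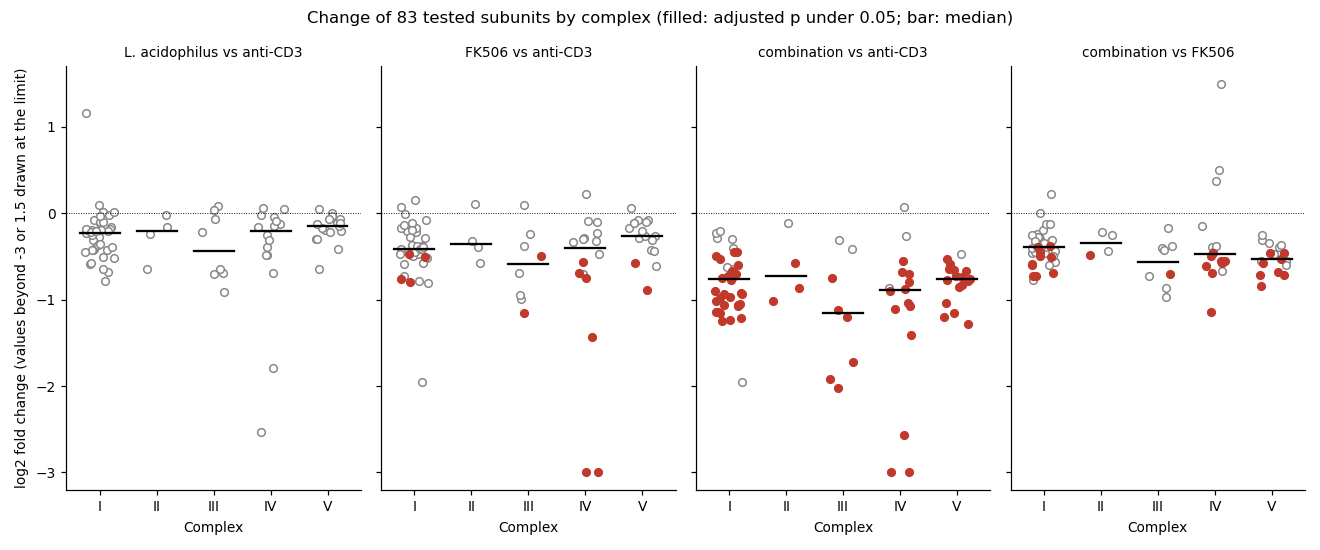
Log2 fold change of each of the 83 tested subunits (points, grouped by complex) in 4 comparisons, filled where the adjusted p was under 0.05, with the median of each complex as a bar. Points beyond −3 or 1.5 are drawn at the limit. In the combination against anti-CD3 the medians lie between −0.72 and −1.16 and a single subunit lies above 0.

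Highly expressed genes as a whole fell in this comparison, and short ones most. Among the 6380 genes with a mean of at least 10 FPKM, 43.5% were lower, as were 82.9% of the 76 subunits at that level. The transcript length implied by counts and FPKM had a median of 848 nucleotides for these 76 subunits and 2872 for the 6380 genes. Among the shortest of 5 equal classes of these genes by length (under 1467 nucleotides), which held 58 of the subunits, the median log2 fold change was −0.67 for all 1276 genes and −0.77 for the subunits, with 60.7% of the genes and 81.0% of the subunits lower. In the next class, all 14 subunits were lower, against 53.8% of the genes, with medians of −0.74 and −0.45. In the longest class the median of all genes was 0.10. In the shortest class, FK506 alone had 20.6% of the genes and 10.3% of the subunits lower than anti-CD3. These shares were 22.3% and 35.7% in the next class, and 15.2% and 0% in the class after it. The 2 libraries that stood apart also differed from their groups with length, but with short genes higher and long genes lower. Replicate 2 of anti-CD3 was above the other anti-CD3 libraries by a median of 0.37 (log2) in the shortest class and below them in the longest (median −0.29), and replicate 1 of the combination differed from its group by 0.36 and −0.14. With each library's trend with length removed, an alternative added after seeing the data, 47 subunits were lower and 2 higher (Cox7a2l and Ndufs3), with 18.8% of all genes lower, and the median log2 fold change of the subunits was −0.40, where that of all genes was 0.13. The part of transcript length in the fall was not tested further.

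**Figure D3:**
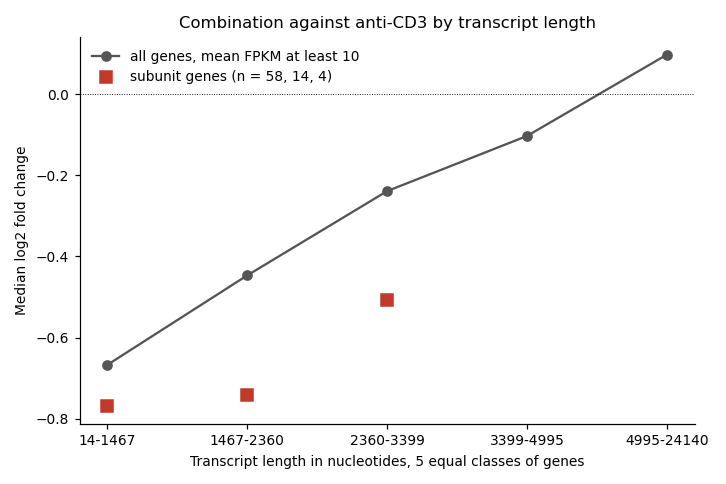
Median log2 fold change in the combination against anti-CD3 for genes with a mean of at least 10 FPKM, in 5 equal classes by implied transcript length in nucleotides (grey line, 1276 genes each), and for the 58, 14 and 4 subunits in the 3 shortest classes (red squares). The median of all genes rises from −0.67 to 0.10 with length, and the subunits lie below it in each class where they occur.

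Complex I takes electrons from NADH. Of its 38 tested nuclear subunits, 30 were lower in the combination than in anti-CD3, with a median log2 fold change of −0.76. Its core subunits carry the flavin and the iron-sulphur clusters and did not move alike. Ndufv1, which binds NADH and the flavin, had 40.3, 45.0 and 42.7 FPKM in anti-CD3 and 32.1, 29.6 and 28.8 in the combination, without overlap (log2 fold change −0.70 ± 0.10 SE, adjusted p = 0.000146, edgeR). Ndufs8, an iron-sulphur subunit, had 55.7, 129 and 44.6 FPKM in anti-CD3 and 49.0, 39.7 and 38.6 in the combination (−1.07 ± 0.32 SE, adjusted p = 0.0168), and the groups overlapped. Its fall leaned on replicate 2 of anti-CD3, with a change of −0.57 when that library and replicate 1 of the combination were left out, and its call was kept in 10 of the 12 fits that left out a library.

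Ndufs7 and Ndufv2, further core subunits of the electron path, also fell in the combination, by 0.97 and 0.70 on the log2 scale. The largest core subunit, Ndufs1, had 27.1, 23.4 and 30.2 FPKM in anti-CD3 and 27.0, 26.1 and 27.0 in the combination (log2 fold change −0.23 ± 0.09 SE, adjusted p = 0.0573), and Ndufs3 had 42.2, 51.9 and 44.5 against 50.5, 46.0 and 41.9 (−0.21 ± 0.12 SE, adjusted p = 0.168). Neither was called, and both pairs of groups overlapped.

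Among the accessory subunits of complex I, which surround the core, the largest called falls with a mean of at least 1 FPKM were in Ndufb8 and in Ndufb4b and Ndufb4c. The last 2 are near-identical copies of Ndufb4 at 2.3 to 5.3 FPKM, so that their reads may belong to Ndufb4 and their values are uncertain. Ndufb8 had 96.4, 189 and 84.3 FPKM in anti-CD3 and 65.2, 50.2 and 44.7 in the combination, without overlap (log2 fold change −1.25 ± 0.26 SE, adjusted p = 0.00205; −0.97 without the 2 libraries that stood apart). Ndufv3 had 93.3, 105 and 92.2 FPKM in anti-CD3 and 52.7, 34.1 and 34.0 in the combination (−1.15, adjusted p = 0.000133), also without overlap. Ndufa1, Ndufa2, Ndufa3, Ndufa6, Ndufa7 and the hardly detected copy Ndufs6b were not called, like Ndufs1 and Ndufs3.

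Complex II oxidises succinate and feeds its electrons into the chain, and its 4 subunits were split. Sdha, the catalytic subunit that binds the flavin, had 68.9, 57.4 and 64.2 FPKM in anti-CD3, 71.2, 63.3 and 63.6 in *L. acidophilus*, 75.2, 74.6 and 71.8 in FK506 and 69.7, 66.6 and 66.1 in the combination. The FK506 libraries were above all those of anti-CD3, and the combination overlapped anti-CD3. Its log2 fold change was −0.12 (95% interval −0.33 to 0.10, adjusted p = 0.336), whereas limma on quantile-normalized values called it higher (0.30, adjusted p = 0.0306). Sdhb, the iron-sulphur subunit, had 88.2, 188 and 77.8 FPKM in anti-CD3 and 77.7, 61.8 and 63.4 in the combination (−1.02 ± 0.28 SE, adjusted p = 0.0112), with replicate 2 of anti-CD3 far above the rest, and its change was −0.62 without the 2 libraries that stood apart and −0.48 without replicate 2 of anti-CD3 alone. The membrane anchors Sdhd and Sdhc fell with less spread, Sdhd from 79.0, 103 and 77.1 to 57.8, 52.7 and 53.5 FPKM (−0.87 ± 0.13 SE, adjusted p = 0.000321) and Sdhc from 59.5, 67.2 and 52.9 to 50.9, 43.4 and 44.5 FPKM (−0.58 ± 0.12 SE, adjusted p = 0.0022), neither with overlap.

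Complex III hands electrons from ubiquinol to cytochrome c. With 6 of 8 subunits lower, its median log2 fold change of −1.16 was the lowest of the 5 complexes. Uqcrfs1, the Rieske iron-sulphur protein and one of its catalytic subunits, lies on chromosome 13 at 30540312 to 30545316 (GRCm38). It had 80.4, 101 and 102 FPKM in anti-CD3, 82.2, 102 and 104 in *L. acidophilus*, 69.9, 65.9 and 82.1 in FK506 and 45.9, 49.4 and 47.2 in the combination. The combination was below every other library, whereas *L. acidophilus* overlapped anti-CD3. Its log2 fold change against anti-CD3 was −1.20 ± 0.13 SE (edgeR, adjusted p = 3.52e-05), and it was called in all 12 fits that left out a library.

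Uqcrq, Uqcr11 and Uqcr10, small subunits of complex III, had the largest falls of the members with a mean of at least 10 FPKM. Uqcrq, a small subunit next to cytochrome b (chromosome 11, 53427922 to 53430831), had 65.4, 108 and 50.8 FPKM in anti-CD3, 41.9, 43.7 and 41.6 in *L. acidophilus*, 37.2, 35.0 and 37.4 in FK506 and 29.9, 17.6 and 16.5 in the combination. The 4 groups stood in that order without overlap, although the step to *L. acidophilus* alone did not pass the test (adjusted p = 0.17). Against anti-CD3 its level in the combination was 4.06-fold lower (log2 fold change −2.02 ± 0.29 SE, adjusted p = 0.000199). Uqcr11 went from 76.2, 175 and 68.4 FPKM to 50.2, 24.7 and 22.5 (−1.92 ± 0.39 SE, adjusted p = 0.00189) and Uqcr10 from 142, 240 and 92.7 to 82.6, 46.6 and 37.1 (−1.72 ± 0.36 SE, adjusted p = 0.0023). In both, replicate 2 of anti-CD3 and replicate 1 of the combination were the highest of their groups, and the changes without those 2 libraries were −1.82 and −1.70. The 2 core proteins Uqcrc1 and Uqcrc2 fell by 1.12 and 0.75 on the log2 scale. Uqcrh, the hinge protein and the most abundant subunit of the complex, had 194, 238 and 208 FPKM in anti-CD3 and 256, 146 and 151 in the combination and was not called (−0.41, adjusted p = 0.116), nor was Uqcrb (−0.31, adjusted p = 0.123).

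**Figure D4:**
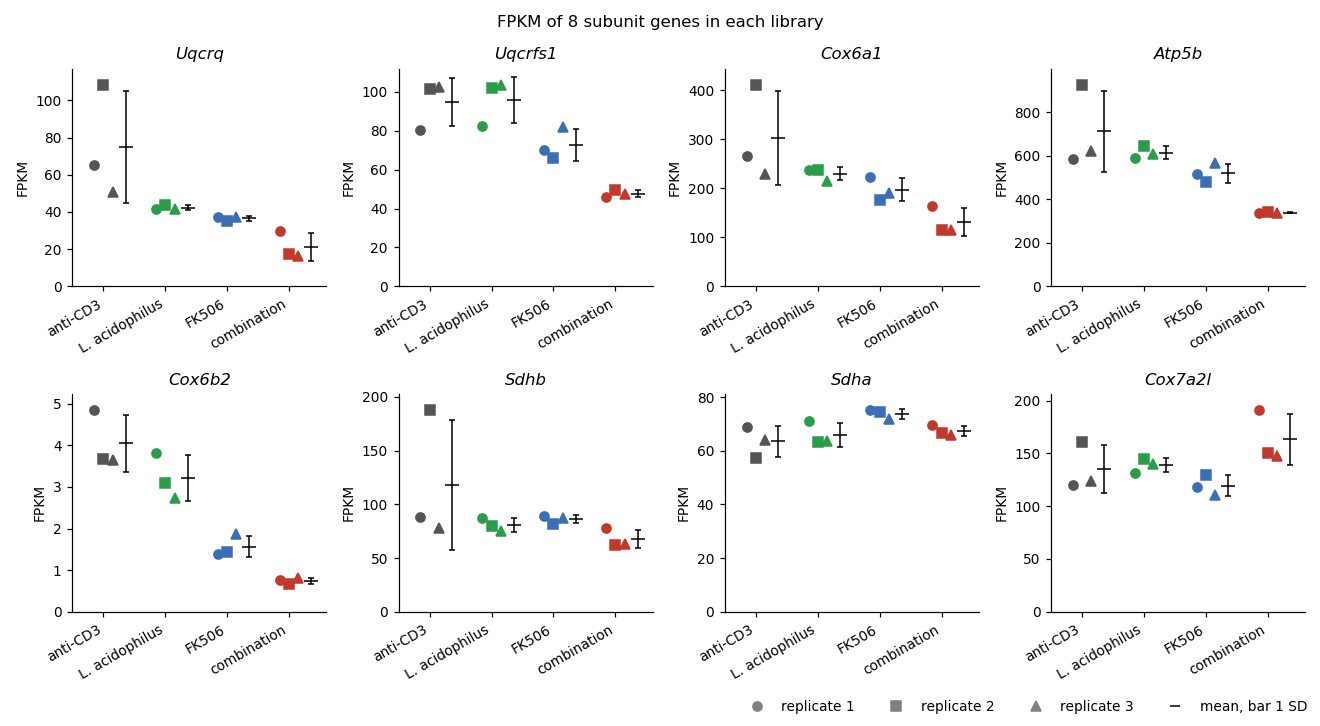
FPKM of 8 subunit genes in each library (points, shape by replicate number) with the mean and 1 SD of each group (black). Uqcrq, Uqcrfs1, Cox6a1, Atp5b and Cox6b2 are lowest in the combination without overlap with any other group, whereas Sdha and Cox7a2l are not.

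Complex IV, cytochrome c oxidase, passes the electrons to oxygen, and several of its nuclear subunits exist as isoforms that differ between tissues. Of 16 tested members 13 were lower in the combination, with a median log2 fold change of −0.89. The broadly expressed isoforms were the abundant ones. Cox4i1, the most abundant subunit of the complex, had 317, 484 and 260 FPKM in anti-CD3, 273, 266 and 267 in *L. acidophilus*, 252, 237 and 230.5 in FK506 and 239, 172 and 170.3 in the combination. Against anti-CD3 the combination was 2.11-fold lower without overlap (log2 fold change −1.08 ± 0.22 SE, adjusted p = 0.00193). Cox6a1 went from 266, 411 and 229 FPKM to 164, 114 and 115 (−1.41 ± 0.23 SE, adjusted p = 0.000396), Cox8a from 313, 394 and 288 to 202, 165 and 165 (−1.11 ± 0.15 SE, adjusted p = 0.000132), and neither overlapped. Cox7a2, Cox7b and Cox6b1 fell by 0.87, 0.79 and 0.67 on the log2 scale.

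Isoforms known from other tissues were low here. Cox6b2, known as a testis isoform, had 4.85, 3.67 and 3.64 FPKM in anti-CD3, 3.81, 3.09 and 2.73 in *L. acidophilus*, 1.40, 1.44 and 1.86 in FK506 and 0.758, 0.661 and 0.808 in the combination. It was the lowest in the combination without overlap, and FK506 alone was below both groups without FK506. Against anti-CD3 its log2 fold change was −2.57 ± 0.27 SE (adjusted p = 2.76e-05). The hypoxia-linked isoform Cox4i2 and the muscle isoform Cox6a2 were called lower in the combination from levels of 0.495 to 1.35 and 0.228 to 1.88 FPKM, with no combination library above 0.0843 FPKM for either, so that no fold is given. Cox7a1, the muscle form, stayed at 0.72 to 2.59 FPKM in all libraries of these 2 groups and was not called.

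Cox7a2l and Ndufa4 were the abundant members of complex IV that were not called. Cox7a2l is known for a part in joining complexes III and IV into supercomplexes, which were not measured here. It had 120, 161 and 124 FPKM in anti-CD3, 131, 145 and 140 in *L. acidophilus*, 118, 130 and 110 in FK506 and 191, 151 and 148 in the combination. The combination overlapped anti-CD3 and was above all *L. acidophilus* and FK506 libraries, but no difference passed edgeR's test (log2 fold change 0.07 against anti-CD3, 95% interval −0.27 to 0.41, adjusted p = 0.735; 0.37 against FK506, adjusted p = 0.105). Other fits called it higher than with FK506, among them DESeq2 (0.40, adjusted p = 0.0411) and limma on log2(FPKM + 1) (0.44, adjusted p = 0.038). It was the single subunit with a value above 0 against anti-CD3. With the trend with transcript length removed it was called higher, at 0.60, and on quantile-normalized FPKM at 0.55. Ndufa4 had 139, 140.5 and 141 FPKM in anti-CD3 and 165, 118 and 119 in the combination (−0.27, adjusted p = 0.154).

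The ATP synthase had the largest share of called falls, 16 of 17 subunits, with a median log2 fold change of −0.76. Atp5b, the catalytic beta subunit (chromosome 10, 128083307 to 128090388), was the most abundant of all members in anti-CD3. It had 587, 926 and 621 FPKM in anti-CD3, 589, 645 and 609 in *L. acidophilus*, 516, 479 and 566 in FK506 and 335, 341 and 338 in the combination. The 3 combination libraries were close to each other and below all others. The log2 fold change against anti-CD3 was −1.28 ± 0.17 SE (adjusted p = 0.00011). Its partner Atp5a1, the alpha subunit, fell from 309, 351 and 313 to 215, 220 and 216 FPKM (−0.79 ± 0.10 SE, adjusted p = 8.69e-05), also without overlap, and Atp5c1, the central shaft, from 159, 251 and 162 to 142, 124 and 122 FPKM (−0.77 ± 0.17 SE, adjusted p = 0.00381).

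The 3 genes for the membrane-bound c subunit encode the same mature protein. Atp5g3 fell by 0.76 on the log2 scale (adjusted p = 0.000587), Atp5g2 by 0.86 (adjusted p = 0.0187) and Atp5g1 by 0.65 (adjusted p = 0.0203). Only the call of Atp5g3 among them was kept in all 12 fits that left out a library. Atp5d and Atp5md fell by 1.20 and 1.15. Atp5e, the epsilon subunit, was not called (−0.47, adjusted p = 0.398), and its replicate 1 was at 166, 210.2, 210.5 and 224 FPKM in the 4 groups while the combination's other libraries were at 76.6 and 68.8. Atpif1, the inhibitor of the ATP synthase, which the choice by symbol left out, had 42.2, 45.7 and 35.5 FPKM in anti-CD3 and 23.1, 17.1 and 17.5 in the combination, without overlap (−1.29 ± 0.16 SE, adjusted p = 6.4e-05).

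The combination was next set against each agent alone, to ask what the other agent added. Against FK506, 28 of the 83 subunits were lower and none higher by edgeR, where 10.9% of all genes were lower and 8.18% higher, and the median log2 fold change of the subunits was −0.45. Among genes with a mean of at least 10 FPKM the shares lower were 24.9% of the genes and 35.5% of the subunits, and in the shortest length class 25.9% and 32.8%. The 5 largest called falls with a mean of at least 1 FPKM were in Cox6b2, which fell by 1.14 on the log2 scale, Atp5md (by 0.84), Ndufb11 (by 0.73), Ndufa12 and Atp5k (each by 0.72). Some falls that were not called were as large, down to −0.97 in complex III. Uqcrfs1 fell by 0.71 (adjusted p = 0.0037) and Atp5b by 0.71 (adjusted p = 0.0122). The count rested on single libraries. It was 72 without replicate 2 of anti-CD3 and replicate 1 of the combination together, chosen after seeing the data, with 14.2% of all genes lower. It was 55 without replicate 1 of the combination (all genes 10.2%) and 42 without replicate 2 of anti-CD3 (13.4%), where Cox7a2l was called higher. It was 8 without replicate 3 of FK506 (6.82%), 13 without its replicate 1 (8.69%), and 9 and 11 without replicates 2 and 3 of the combination (7.31% and 7.4%). The 8 falls kept in all 12 such fits were in Atp5a1, Atp5g3, Atp5md, Atp5pb, Cox7b, Ndufa12, Ndufv1 and Uqcrfs1.

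Against *L. acidophilus*, 49 subunits were lower in the combination and none higher, where 17% of all genes were lower and 16.6% higher, and the median log2 fold change was −0.56. At a mean of at least 10 FPKM, 35.8% of the genes and 63.2% of the subunits were lower, and in the shortest length class 44.1% and 62.1%. Cox6b2 fell by 2.17, Uqcr11 by 1.22, Uqcrfs1 by 1.14, Uqcrq by 1.11 and Atp5md by 1.03 on the log2 scale. Of the 49 falls, 28 were kept in all 12 fits that left out a library. Without replicate 1 of the combination 67 were called, without it and replicate 2 of anti-CD3 together 75, and without replicate 2 or replicate 3 of the combination 28. Of all genes, 16.2%, 19.6%, 13.2% and 13.3% were lower in these fits, in that order. Sdha (−0.09, adjusted p = 0.488) and Cox7a2l (0.12, adjusted p = 0.597) were not called.

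Whether both agents together did more or less than their separate effects added up was tested as the change with *L. acidophilus* in the presence of FK506 less that in its absence. No subunit was called by edgeR, where 1.35% of all genes were called higher than the sum and 3% lower. The median over the subunits was −0.24. An unadjusted p under 0.05 was found for 16 of them (15 below the sum, 1 above), or 19.3%, beside 19.6% of all genes. DESeq2 called 5 subunits, all lower than the sum (Uqcrfs1, Cox7b, Cox6c, Ndufs1 and Atp5g3), in a fit where 5.47% of all genes were lower, and limma called 3 on log2(FPKM + 1), where 3.43% were. Leaving out replicate 1 of the combination gave 10 calls, leaving out replicate 2 of anti-CD3 gave 4, and leaving out replicate 3 of anti-CD3 or replicate 1 of *L. acidophilus* gave 1 each. Of all genes, 2.4%, 4.24%, 2.46% and 2.21% were lower than the sum in these fits. With replicate 2 of anti-CD3 and replicate 1 of the combination left out together, chosen after seeing the data, 43 subunits were called lower than the sum, with 6.03% of all genes lower in the same fit. For Uqcrfs1 the departure was −0.64 (adjusted p = 0.0716), for Cox7b −0.61 (0.054) and for Ndufs1 −0.47 (0.0571).

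Against anti-CD3, the 13 subunits encoded in mitochondrial DNA all had log2 fold changes above 0 in each of the other groups, whereas 73, 77 and 82 of the 83 nuclear ones were below 0 with *L. acidophilus*, FK506 and the combination. Their summed TPM was 25379, 24902 and 38151 in anti-CD3, 44251, 44855 and 41577 in *L. acidophilus*, 62108, 55850 and 57926 in FK506 and 55464, 58707 and 64789 in the combination. The libraries with FK506 were all above those without it, and the *L. acidophilus* libraries were all above those of anti-CD3. Divided by the summed TPM of the 88 nuclear members, the ratio was 1.31, 1.09 and 2.02 in anti-CD3, 2.36, 2.32 and 2.22 in *L. acidophilus*, 3.35, 3.16 and 3.14 in FK506 and 3.30, 4.26 and 4.75 in the combination. These transcripts were about as short as the nuclear ones, with a median implied length of 891 nucleotides. The part of transcript length or of RNA selection in this contrast was not tested.

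All 13 were called higher with FK506 than in anti-CD3 by edgeR, where 10.2% of all genes were, with a median log2 fold change of 0.88. In the combination 10 of 13 were higher than in anti-CD3 (median 0.70), where 21.5% of all genes were. With *L. acidophilus* none was called by edgeR (median 0.42, 12 with an unadjusted p under 0.05), but 6 were called higher with DESeq2, where 2.38% of all genes were, and 6 by edgeR without replicate 3 of anti-CD3, where 0.834% were. Against FK506 the combination had a median of −0.16 over the 13, with 1 called lower, where 10.9% of all genes were, and the median was 0 on quantile-normalized values. The departure from the sum was below 0 for all 13 and called for 3 of them, where 3% of all genes and 7.21% of those with a mean of at least 10 FPKM were called lower. CYTB, cytochrome b of complex III and the partner of Uqcrq and Uqcrfs1, had 797, 997 and 1327 FPKM in anti-CD3 and means of 1678 in *L. acidophilus*, 2407 in FK506 and 2065 in the combination. Its log2 fold change was 1.10 with FK506 (adjusted p = 0.000608) and 0.79 in the combination (adjusted p = 0.00108). COX1, the catalytic subunit of complex IV, was the most abundant of them, with mean FPKM of 3749 in anti-CD3 and 6975 in the combination (0.70, adjusted p = 0.000884). ND1, ND2 and ND6 of complex I were not called in the combination. Reads of the overlapping genes ATP8 and ATP6, and ND4L and ND4, cannot be fully told apart.

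**Figure D5:**
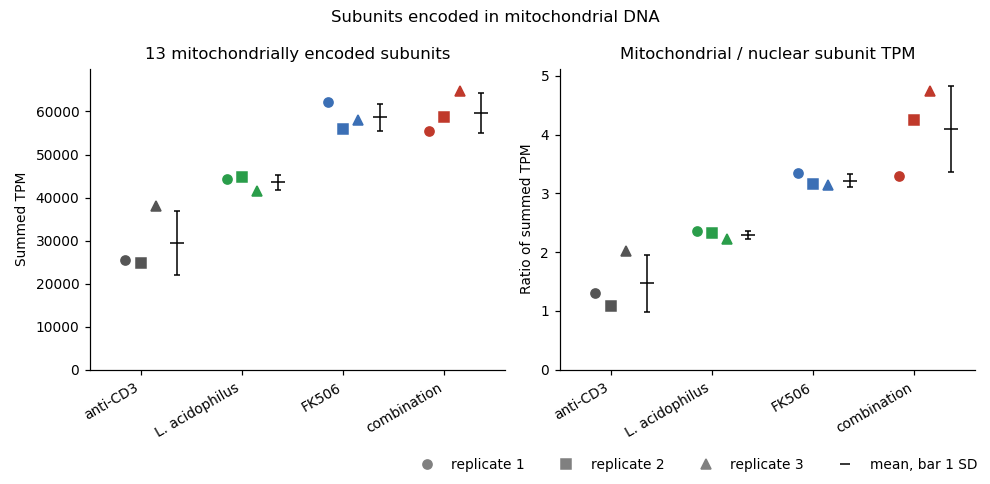
Left, summed TPM of the 13 subunits encoded in mitochondrial DNA in each library (points, shape by replicate number; mean and 1 SD in black). Right, the same sum divided by the summed TPM of the 88 nuclear members, which ranges from 1.09 to 2.02 in anti-CD3 and from 3.30 to 4.75 in the combination.

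Other genes of the respiratory system were taken from lists made by role, in the combination against anti-CD3, where 21.8% of all genes and 43.5% of those with a mean of at least 10 FPKM were lower. Beside Atpif1, the 4 listed respiratory genes that the choice by symbol left out were all lower, with Ndufab1, the acyl carrier of complex I, at −1.28, Cyc1, cytochrome c1 of complex III, at −1.20 and cytochrome c itself (Cycs) at −1.17. Of 78 mitochondrial ribosomal protein genes, which make the ribosomes that translate the mitochondrial transcripts, 75 were lower and none higher, with a median of −0.89 and the largest fall in Mrpl12 (−2.01, adjusted p = 0.000946). Of 17 citrate cycle genes 15 were lower and none higher (median −0.68), and the largest fall was in Suclg1, a succinyl-CoA ligase subunit, from 134 ± 32.1 FPKM (SD, n = 3) to 39.0 ± 3.71 (−1.99, adjusted p = 1.75e-05).

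Of 12 genes for supercomplexes and cristae, the inner membrane folds that hold the chain, a list that also holds the member Cox7a2l, 10 were lower and none higher, led by Higd1a, a hypoxia-induced binding partner of complex IV, at −2.13 and Chchd6, a cristae junction subunit, at −2.06. Assembly factors were more mixed. Among 15 for complex I, 9 were lower (Ecsit the most, at −0.89) and 1 higher (Tmem126b, at 0.64), and among 32 for the other complexes, 14 were lower (Sco1, a copper chaperone of complex IV, the most, at −2.02) and 2 higher (Cox20 at 0.77 and Sdhaf4 at 0.54). Of 13 genes that maintain and transcribe mitochondrial DNA, 6 were lower (Tefm the most, at −0.92) and 3 higher (Polg2 the most, at 0.77). Of 12 transcription regulators of respiratory genes, 4 were lower and 2 higher. The shares lower in the last 3 lists, 43.8%, 46.2% and 33.3%, were near or below that of the genes with a mean of at least 10 FPKM. The 2 rises were in Nfe2l2, the regulator of the oxidative stress response (0.57, adjusted p = 0.000484), and in Ppargc1a, a coactivator of mitochondrial biogenesis (adjusted p = 0.0258). Ppargc1a was hardly detected, at 0, 0 and 0.0116 FPKM in anti-CD3 and 0.0363, 0.0515 and 0.102 in the combination, so that no fold is given. Myc, which drives growth and mitochondrial biogenesis in activated T cells, had mean FPKM of 92.0, 84.1, 66.9 and 25.2 in anti-CD3, *L. acidophilus*, FK506 and the combination (−2.07, adjusted p = 7.65e-06), and Pprc1, a coactivator of NRF1, fell by 1.23. Nrf1 (−0.23), Gabpa (−0.03) and Yy1 (−0.24) were not called, and the other called falls of this list are not named here.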

How the data were processed

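CD4+ T-cell RNA was sequenced in 12 libraries, 3 for each of 4 groups, with groups and replicate numbers taken from the sample labels. The submitters' processing notes name bcl2fastq 2.20.0, Trimmomatic, HISAT2 2.1.0 and StringTie 2.1.3b, without their settings, and the builds mm10 and GRCm38. The authors deposited 1 table of 45777 genes with whole-number read counts (not normalized, possibly rounded estimates), FPKM values scaled to transcript length and library size, and TPM values scaled to 1 common total per library. Whether strand was used in counting is not given in the sources used here. Libraries held 45416397 to 64658165 counts, so that for most members the spread between libraries rather than counting error limits precision. The study's text names another mouse strain and age than the labels, and the labels were followed.

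Counts were tested for the 23585 genes detected in 3 or more libraries with edgeR 4.0.16 (quasi-likelihood test, TMM factors, 1 mean per group for all 12 libraries, R 4.3.3). Calls required an adjusted p (Benjamini-Hochberg) under 0.05, without a fold minimum unless stated. Standard errors are the log2 fold change over the square root of F, and intervals are 95%. DESeq2 1.42.0 and limma 3.58.1 on log2(FPKM + 1), log2(FPKM + 0.1) and quantile-normalized values were alternatives, beside no TMM factors, other filters, only the groups compared, a replicate block, a 2-fold minimum and each library left out. The method was also run on simulated counts with changes of at least 2-fold. These held no trend with transcript length and no library that stood apart, so that the run cannot tell how such features affect the calls. The implied transcript length is the count, scaled to library size, over FPKM, as a median over libraries. Same-numbered libraries deviated together, with every correlation over 0.1, for *L. acidophilus* and anti-CD3 (0.47, 0.30 and 0.23) and for the combination and *L. acidophilus* (0.23, 0.24 and 0.14), and not for the other 3 pairs of groups compared. In those pairs, replicate 1 alone correlated at 0.39 for FK506 and anti-CD3, 0.09 for the combination and anti-CD3 and 0.30 for the combination and FK506. No label says what a number marks, and whether the replicate 1 libraries shared a batch was not tested.

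Named were the 4 Sdh genes, the core subunits, the isoform sets, the most abundant member of each complex, the 5 largest called rises and falls with a mean of at least 1 FPKM in each comparison, and the largest called rise and fall of each other list. Of the genes this rule names, 1 is not reported here. The members and lists were chosen with earlier results of these data known. Gene positions and promoter sequences are from RefSeq on GRCm38.p6, where all 88 members matched by identifier and 69 had a promoter sequence. Figures were drawn with matplotlib 3.10.9.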

Additional observations from a re-analysis of the deposited data

Results flagged for a closer look

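By edgeR, no nuclear subunit differed from the added-up effects of both agents at an adjusted p under 0.05, but 13 of 195 other genes of the respiratory lists did, all below the sum. That is 6.67%, where 3% of all genes tested and 7.21% of genes with a mean of at least 10 FPKM were below it, beside 6.29% of the 143 list genes at that level, so that the lists held no more such genes than others of like abundance. For each of the 13, the change that *L. acidophilus* made in the presence of FK506 was tested directly against the change it made in its absence. The log2 departures were −1.29 for Myc (adjusted p = 0.0107), −1.06 for Apoo, a cristae junction subunit (0.0172), −0.93 for CYTB (0.03), −0.91 for the complex I assembly factor Ndufaf4 (0.0261), −0.91 for Pprc1 (0.0129), −0.88 for the mitochondrial ribosomal protein gene Mrpl18 (0.00987), −0.85 for ND1 (0.0454), −0.75 for Cycs (0.0242), −0.73 for Fh1, the fumarase of the citrate cycle (0.0105), −0.70 for Mrpl35 of the same ribosome (0.0454), −0.70 for COX2 (0.035), −0.68 for Mgme1, a nuclease of mitochondrial DNA (0.0404), and −0.60 for Immt, the cristae scaffold mitofilin (0.0487). Fh1 had mean FPKM of 53.5 in anti-CD3, 44.0 in *L. acidophilus*, 66.1 in FK506 and 32.9 in the combination, and Cycs 45.0, 45.4, 38.2 and 23.0.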

How the results depend on the processing

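In the combination against anti-CD3, 45 to 78 subunits were lower under every alternative run without a 2-fold minimum, and the median log2 fold change, −0.79, was −0.59 without TMM factors, −0.56 with limma on log2(FPKM + 1), −0.57 on log2(FPKM + 0.1), −0.39 on quantile-normalized values, −1.07 in replicates 2 and 3 alone and −0.40 with the length trend removed. Without TMM factors the median of all genes in this comparison was 0.23. Over the fits without a 2-fold minimum, 15.9% to 28.1% of all genes were lower. Leaving out single libraries gave 54 to 78 calls and medians of −1.04 to −0.62. A 2-fold minimum left 28 calls here, 4 with FK506, 1 against FK506, 6 against *L. acidophilus*, and 1 (FK506) and 0 (combination) of the mitochondrially encoded rises.

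With FK506 against anti-CD3, the 14 calls became 22 with DESeq2, 8 without TMM factors, 5 with only the groups compared, 6 with limma on log2(FPKM + 1) or quantile-normalized values (5 lower and 1 higher in each), 7 on log2(FPKM + 0.1) (6 lower and 1 higher), 5 in replicates 2 and 3 alone and 2 to 30 without single libraries. The rises were in Ndufs1 (0.27 and 0.28 on the log2(FPKM + 1) and log2(FPKM + 0.1) scales) and in Ndufa4 (0.49 on quantile-normalized values, and 0.43 with the length trend removed). Cox7a2l was called higher against FK506 with DESeq2, without TMM factors, with limma on all 3 scales, with the length trend removed and without replicate 2 of anti-CD3 (0.37 to 0.60), and against *L. acidophilus* on quantile-normalized values (0.41) and with the length trend removed (0.47). Ndufa6 was called higher against FK506 on quantile-normalized values (0.46). The median with FK506, −0.38, was −0.15 on quantile-normalized values, −0.17 without the 2 libraries that stood apart, −0.14 with the length trend removed and −0.49 to −0.17 without single libraries. Without those 2 libraries, 72 subunits were called against FK506 and 75 against *L. acidophilus*. Leaving out single libraries gave 8 to 55 and 28 to 67 calls there, with medians of −0.63 to −0.35 and −0.80 to −0.48. The median against *L. acidophilus* was −0.33 on quantile-normalized values, −0.79 without the 2 libraries, −0.78 in replicates 2 and 3 alone and −0.33 with the length trend removed. *L. acidophilus* against anti-CD3 gave 1 call with DESeq2, 0 without any single library, and medians of −0.33 to −0.07.

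The departure from the sum, with no call, had 5 with DESeq2, 1 without TMM factors, 3 with edgeR's own expression filter, 2 with the replicate block, 3 and 3 with limma on log2(FPKM + 1) and log2(FPKM + 0.1), 4 on quantile-normalized values, 43 without the 2 libraries, 1 in replicates 2 and 3 alone, 6 with the length trend removed (Cox7a2l above the sum) and 0 to 10 without single libraries. Its median was −0.57 without the 2 libraries and −0.43 to −0.13 without single libraries. With the replicate block the calls were 0, 11, 70, 37 and 52 for *L. acidophilus*, FK506 and the combination against anti-CD3 and for the combination against FK506 and *L. acidophilus*. The mitochondrially encoded rises numbered 12 to 13 with FK506 and 9 to 11 in the combination without single libraries.

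On quantile-normalized values 50, 58 and 73 of the 83 subunits were below 0 with *L. acidophilus*, FK506 and the combination against anti-CD3, and with the length trend removed 55, 60 and 76. Among genes called in either of the fits compared, signs turned in the combination against anti-CD3 for Sdha (0.30) and Idh3g (0.10) on quantile-normalized values. With the length trend removed, among such genes, they turned in the combination against anti-CD3 for Ndufb5 (0.039), Ndufs3 (0.34), Ndufa8 (0.11), Uqcc3 (0.41), Surf1 (0.0093), Idh3g (0.17) and Pdhb (0.035), and against *L. acidophilus* for Sdhc (0.0042), Ndufs3 (0.28) and Ndufa8 (0.030). Without the 2 libraries the departures of Uqcrq (−0.69), Ndufa7 (−0.47) and Ndufb8 (−0.57) were below the sum. The cause of these changes was not tested.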
